A study of Homo sapiens with 32 samples.

Results

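The genes described here are 10 regulators of the passage from G1 into S phase, chosen by name: the D-type cyclins CCND1, CCND2 and CCND3, the E-type cyclins CCNE1 and CCNE2, the A-type cyclins CCNA1 and CCNA2, the kinase CDK2, its activating phosphatase CDC25A, and the F-box protein SKP2. They are 10 of the 48804 genes in the deposited table. RNA was sequenced from MDA-MB-468, an established human triple-negative breast cancer cell line, after 24 h or 72 h with PBS (control), 0.5 µM salinomycin (Sal, a potassium ionophore), 15 µM dasatinib (Das, an inhibitor of SRC and ABL family kinases) or the same doses of both drugs (S + D). Each of the 8 groups had 4 libraries, 3 numbered and 1 with no number in the labels. All came from this 1 cell line, and the labels name no genetic change made to it for the experiment. The study's methods call the 4 biological replicates, and how the unnumbered library of each group differs from the numbered ones is not given in the sources used here.

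D-type cyclins bind CDK4 and CDK6, respond to growth factor signals and start the phosphorylation of the RB family of pocket proteins. E-type cyclins then activate CDK2 at the G1/S boundary, and cyclin A2 takes over CDK2 as DNA is copied. CDC25A removes the inhibitory phosphates from CDK2, and SKP2 directs the CDK inhibitor p27 to the proteasome. Cyclin A1 is known mainly from the germ line, and E-type and A2 cyclin genes are classic targets of E2F factors.

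Library totals ranged from 25692561 to 42769687 counts. CCND2 had 0 counts in all 32 libraries, where 3 counts would have been 0.0705 to 0.113 counts for every 1000000 of the library (CPM), so its RNA was not detectable at this depth and it was not tested. The other 9 members passed the filter on low counts, CCNA1 at levels far below the rest. Library 3 of Das at 72 h stood apart. Over the 1173 genes that the other 3 Das libraries put past both cutoffs at 72 h (an adjusted p below 0.01 together with a log2 change of more than 1.5 in either direction), it had moved from the control by a median of 0.65 on the log2 scale, against 1.27 to 1.54 in the libraries that had picked those genes. The members' changes with Das at 72 h are given with and without it, while class sums, cyclin ratios and levels include it. The unnumbered libraries also deviated from their groups together and are named where they differ. The line's markers were present (EGFR 2793 to 5923 CPM, EPCAM 206 to 393, KRT8 205 to 1429, KRT18 349 to 926 and CDH1 195 to 361). Of the 3 receptor genes after which triple-negative cells are named, PGR was at 0 to 0.0895 CPM. RNA of ESR1 (3.64 to 11.97 CPM) and ERBB2 (56.8 to 192) was present. Of the markers of other cell types, PTPRC reached 0.132 CPM and COL1A2 0.0269, while COL1A1 stood at 18.2 to 120.001 CPM and was higher with S + D at 24 h (log2 fold change 0.96) and 72 h (1.62) and with Sal at 72 h (1.22). Its part in the results was not tested.

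Promoter windows were searched for short motifs near the members' start sites. RefSeq windows on GRCh38.p14, from 250 bases before to 50 bases after a start site, were found for 6 members (CCND3, CCNE1, CCNA1, CCNA2, CDC25A and SKP2). They were searched on both strands for an E2F-type octamer (TTTCCCGC, TTTCGCGC, TTTGCCGC or TTTGGCGC), a CCAAT box (CCAAT) and a cyclic AMP element (TGACGTCA). The 3 windows below are examples. CDC25A and CCNA2 fell with most of the list and hold such matches, in capitals. CCNE1 was also lower with each treatment at both times, and its window holds none of the 3.
CDC25A, chr3:48188368-48188667, minus strand: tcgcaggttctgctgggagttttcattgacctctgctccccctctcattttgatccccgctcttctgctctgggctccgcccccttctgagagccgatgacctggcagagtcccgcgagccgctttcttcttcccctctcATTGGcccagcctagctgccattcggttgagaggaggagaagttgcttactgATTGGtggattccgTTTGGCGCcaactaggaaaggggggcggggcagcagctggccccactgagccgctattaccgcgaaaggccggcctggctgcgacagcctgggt
CCNA2, chr4:121823834-121824133, minus strand: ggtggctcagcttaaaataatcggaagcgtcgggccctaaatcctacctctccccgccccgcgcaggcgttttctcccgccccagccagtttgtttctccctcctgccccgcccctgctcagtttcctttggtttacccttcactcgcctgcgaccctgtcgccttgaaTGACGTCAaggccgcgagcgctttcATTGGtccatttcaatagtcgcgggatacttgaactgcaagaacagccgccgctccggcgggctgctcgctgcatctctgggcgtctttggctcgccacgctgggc
CCNE1, chr19:29811741-29812040, plus strand: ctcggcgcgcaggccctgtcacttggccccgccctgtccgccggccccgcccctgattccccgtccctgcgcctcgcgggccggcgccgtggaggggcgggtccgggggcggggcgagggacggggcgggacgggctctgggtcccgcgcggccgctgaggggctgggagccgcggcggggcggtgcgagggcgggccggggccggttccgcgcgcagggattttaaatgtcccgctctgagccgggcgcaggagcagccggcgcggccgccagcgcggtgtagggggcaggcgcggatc

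The CDC25A window held an E2F-type octamer at position -44 and CCAAT boxes at -110 and -58, counted from the start site. The CCNA2 window held the cyclic AMP element at -81 and a CCAAT box at -56. Of all 35116 windows of this length, 3.31% held an E2F-type octamer, 34.6% a CCAAT box and 1.85% the cyclic AMP element. The SKP2 and CCNA1 windows held none of these, and 2 of the 3 CCND3 windows held a CCAAT box. The CCNE1 window instead held 7 copies of the GC box GGGCGG, which 45% of all windows held at least once, and 81.0% of its bases were G or C. A search for TTTGAA, a form of the CHR element, found it in none of the 8 windows and in 15.2% of all windows. Other forms of the element, such as the CTTGAA in the CCNA2 window, were not searched. These are matches of letters within the windows searched.

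Most members were lower with Sal at 72 h and with S + D at both times, and at 72 h CCND1, CCNE2 and CCNA2 fell furthest with both. At 24 h, 4 of the 9 tested members were lower with Sal (2.23% of all genes tested were), 6 with Das (6.88%) and 8 with S + D (16.5%), and none was higher. At 72 h, 7 members were lower with Sal (26.8% of genes), 4 with Das (9.36%) and 7 with S + D (27.9%). Without library 3 of Das, CCNE2, CCNA2 and SKP2 were called as lower with Das too. Over all genes, 1173 passed both cutoffs in either direction in that fit, against 838 with the library kept. Those counts use the fold cutoff, which the members' calls do not. The share of all genes lower in that fit is not given, so nothing is read from the added calls. CCNA1 alone was higher, with Sal (26.3% of genes were higher) and with S + D (27%). It passed the 72 h filter through the libraries of those groups (40 to 270 and 71 to 157 reads, against 5 to 17 in the controls). A call as lower was therefore not open to it. Past the fold cutoff as well, 6 members were lower at 72 h with Sal (9.45% of genes), 1 with Das (2.34%) and 6 with S + D (10.5%). The median log2 fold change of the 9 members at 72 h came to -1.63 for Sal, -0.78 for Das and -1.75 for S + D, where the medians of all genes tested were 0.0042, 0.022 and 0.012. CPM is a share of a library, so less RNA of a gene per cell and fewer cells in a given state cannot be told apart in these bulk samples.

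**Figure D1:**
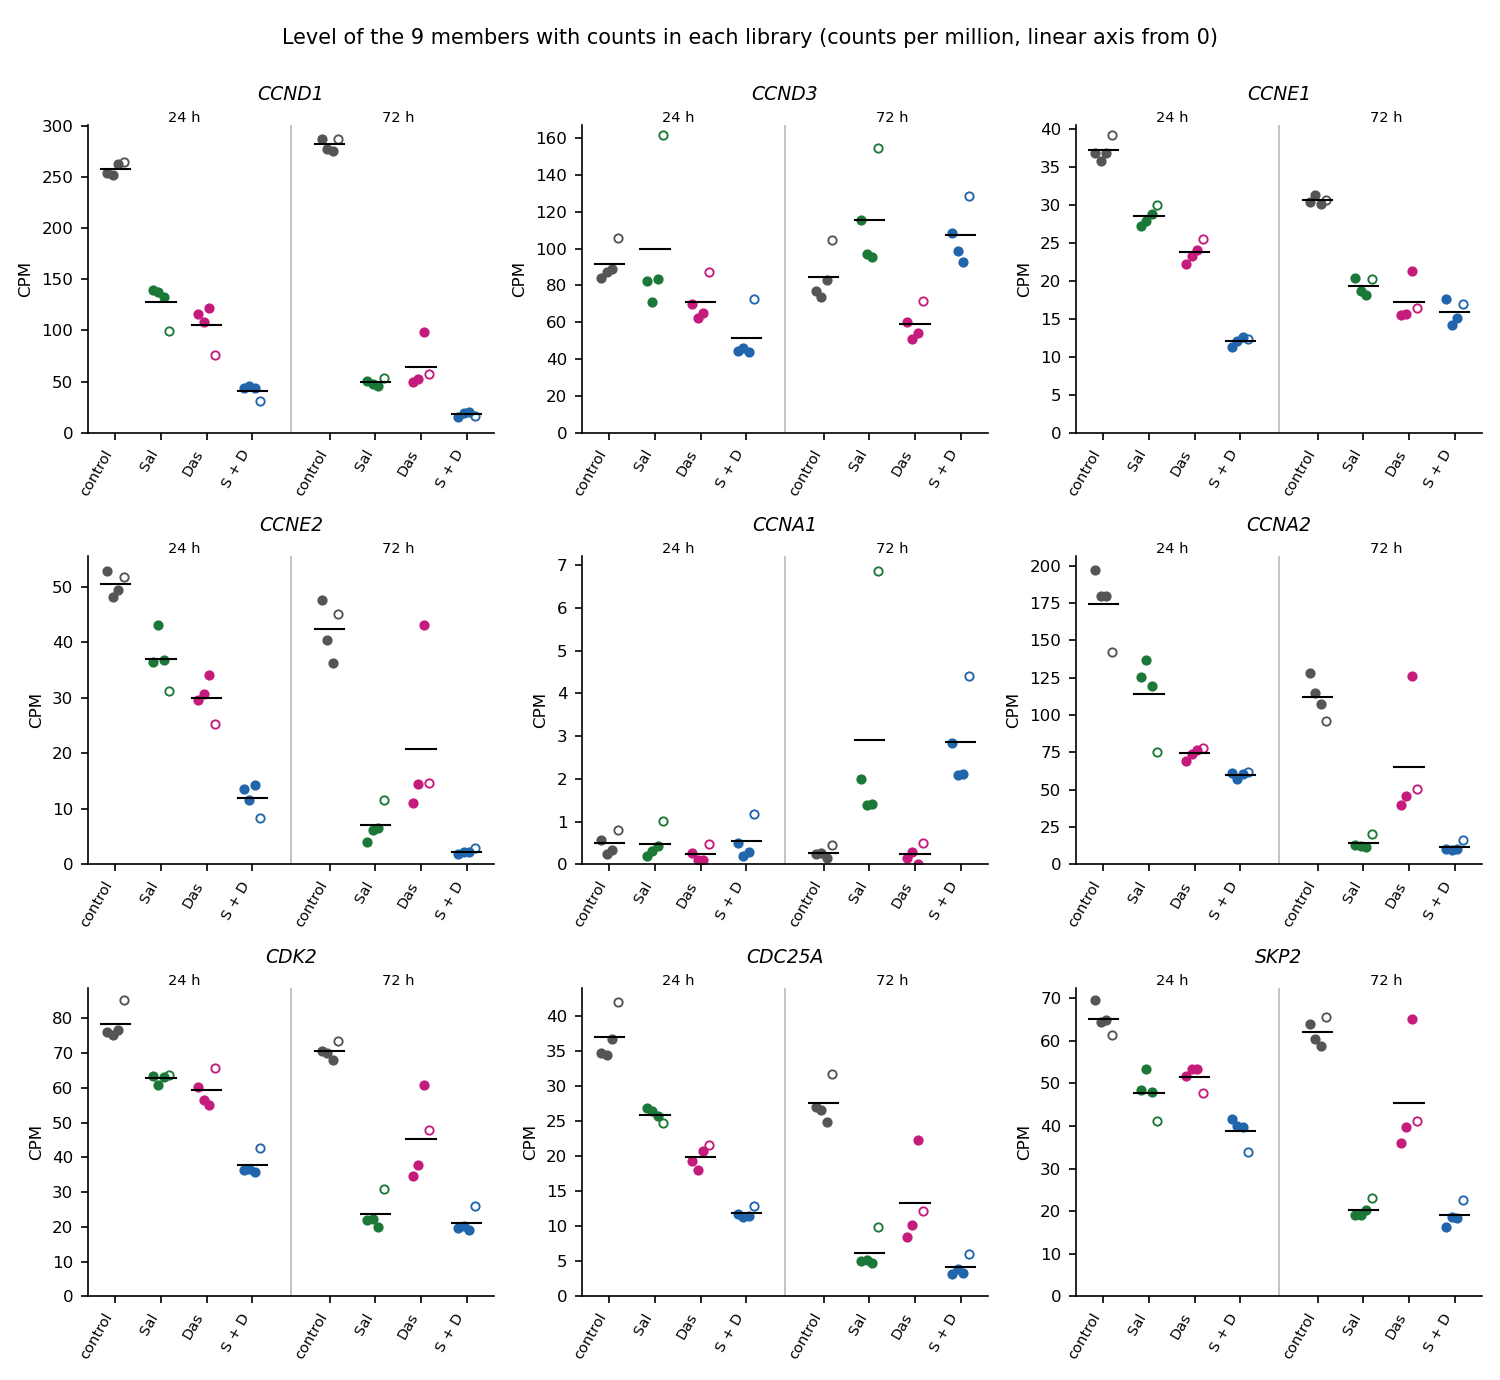
CPM of each of the 9 members with counts, on a linear axis from 0, for control, Sal, Das and S + D at 24 h and 72 h. Each point is 1 library (filled, numbered; open, unnumbered) and each bar the mean of 4. CCND1 fell from 275 CPM or more in the 72 h controls to 20.4 or less with S + D, CCND3 did not follow it, CCNA1 rose at 72 h with Sal and S + D, and library 3 of Das at 72 h sat above its group for most genes.

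CCND1 (ENSG00000110092; GRCh37 chr11:69455924-69469242, plus strand) encodes cyclin D1. In the 24 h controls it stood at 254, 252, 263 and 264 CPM in libraries 1, 2 and 3 and the unnumbered library, the order used from here on. It stood at 139.9, 137, 133 and 99.7 CPM with Sal, at 116, 109, 122 and 75.6 for Das, and at 43.6, 46.1, 43.6 and 31.0 with S + D. No treated library overlapped the controls, and every S + D library lay below every library of either drug alone. At 72 h the controls held 288, 278, 275 and 287 CPM, Sal 50.1, 47.2, 46.1 and 53.4, Das 49.7, 52.4, 98.5 and 57.3, and S + D 15.4, 19.3, 20.4 and 16.7. Again no range touched the control range, and S + D lay lowest.

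The log2 fold changes of CCND1 at 24 h were -1.03 ± 0.16 (SE) with Sal (adjusted p = 0.000416), -1.27 ± 0.16 with Das (adjusted p = 2.52e-05) and -2.62 ± 0.16 with S + D (adjusted p = 8.12e-09). At 72 h they were -2.54 ± 0.18 with Sal (adjusted p = 1.14e-08), -2.13 ± 0.18 with Das (adjusted p = 2.44e-07) and -3.99 ± 0.19 with S + D, a 15.9-fold fall (adjusted p = 9.71e-11). Without library 3 the 72 h change with Das was -2.40 ± 0.11. CCND1 was the only member that Das put past the fold cutoff with all libraries fitted, and the only member that passed the test as lower with S + D than with Sal at 72 h (-1.45 ± 0.18, adjusted p = 6.91e-05; 1.59% of genes were lower).

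CCND3 (ENSG00000112576; GRCh37 chr6:41902672-42018095, minus strand), cyclin D3, did not follow CCND1. At 24 h it stood at 84.2, 87.1, 89.1 and 106 CPM in the controls, 82.6, 70.9, 83.6 and 162 for Sal, 69.8, 62.5, 64.9 and 87.3 for Das, and 44.5, 45.8, 43.6 and 72.7 with S + D. The last entry, the unnumbered library, was the highest of each group, and only the S + D range lay clear of the controls. CCND3 was lower with S + D at 24 h (-0.79 ± 0.22, adjusted p = 0.00826), a call that held only without the unnumbered S + D library among the 8 fits that each left out a library (adjusted p of 0.0123 to 0.0289 in the 7 others). At 72 h it stood at 77.2, 73.9, 82.9 and 105 CPM in the controls, 115, 97.2, 95.3 and 155 for Sal, 59.9, 50.97, 54.2 and 71.7 for Das, and 109, 98.7, 92.8 and 129 with S + D. The Sal and S + D ranges reached above the control range but overlapped it, while the Das range lay below. None of the 3 changes passed the test (Sal 0.43 ± 0.17, adjusted p = 0.0302; Das -0.52 ± 0.17, adjusted p = 0.0217, or -0.47 ± 0.18 and 0.0433 without library 3; S + D 0.32 ± 0.17, adjusted p = 0.0948). The difference between S + D and Das at 72 h did (0.85 ± 0.17, adjusted p = 0.000551).

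CCNE1 (ENSG00000105173; GRCh37 chr19:30302898-30315219, plus strand), cyclin E1, gave tight groups. At 24 h the controls held 36.9, 35.8, 36.9 and 39.2 CPM, Sal 27.3, 27.9, 28.8 and 30.0, Das 22.2, 23.3, 24.1 and 25.5, and S + D 11.3, 12.1, 12.6 and 12.3. The 4 groups were fully separate and fell in that order. At 72 h the controls held 30.4, 31.2, 30.1 and 30.6 CPM, Sal 20.3, 18.6, 18.1 and 20.3, Das 15.5, 15.7, 21.2 and 16.4, and S + D 17.6, 14.2, 15.1 and 16.9. All 3 treated groups lay below the controls, and Das and S + D overlapped. The fall with S + D was 3.01-fold at 24 h (-1.59 ± 0.08, adjusted p = 6.67e-10) and 1.94-fold at 72 h (-0.96 ± 0.12, adjusted p = 2.4e-06), and it was the smaller at 72 h by a test of the difference (0.68 ± 0.13, adjusted p = 0.000294). With Sal it fell 1.31-fold at 24 h (adjusted p = 0.00213) and 1.6-fold at 72 h (adjusted p = 8.92e-05), and with Das 1.54-fold (adjusted p = 1.86e-05) and 1.79-fold (adjusted p = 7.67e-05), the last 1.91-fold without library 3 (adjusted p = 5.01e-06). The 24 h call with Sal was lost without control library 3 (adjusted p = 0.0106) or the unnumbered control (adjusted p = 0.0102).

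CCNE2 (ENSG00000175305; GRCh37 chr8:95891998-95908906, minus strand), cyclin E2, had its deepest falls at 72 h. Of its annotated exon bases, 37.1% lie over genes on the opposite strand, INTS8 among them, and whether the counting used strand is not given in the sources used here. The same share was 16.8% for CDK2, 10.4% for CCND1 and 9.2% for CCNA2. CCNE2 stood at 53.0, 48.3, 49.4 and 51.7 CPM in the 24 h controls, 36.4, 43.2, 36.9 and 31.2 for Sal, 29.6, 30.6, 34.2 and 25.2 for Das, and 13.6, 11.7, 14.3 and 8.38 with S + D. The S + D libraries lay clear of every other group. At 72 h it stood at 47.7, 40.5, 36.3 and 45.1 CPM in the controls, 3.99, 6.24, 6.48 and 11.7 for Sal, 11.2, 14.5, 43.2 and 14.7 for Das, and 1.89, 2.17, 2.27 and 2.92 with S + D. The S + D libraries were again lowest, and library 3 of Das lay within the control range.

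The 72 h change of CCNE2 with S + D was -4.21 ± 0.41, an 18.5-fold fall (adjusted p = 1.44e-07), from 42.4 ± 5.06 to 2.31 ± 0.436 CPM (SD, n = 4). With Sal it was -2.59 ± 0.37 (adjusted p = 1.07e-05). With Das it was -1.03 ± 0.35 and not called (adjusted p = 0.0316), and without library 3 it was -1.65 ± 0.25 and called (adjusted p = 8.39e-05). The difference between S + D and Sal at 72 h was -1.62 ± 0.38 (adjusted p = 0.0144, 95% interval -2.42 to -0.81). At 24 h CCNE2 fell with Das (-0.74 ± 0.15, adjusted p = 0.00175) and S + D (-2.04 ± 0.16, adjusted p = 5.36e-08), while Sal gave -0.46 ± 0.15 (adjusted p = 0.0469).

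CCNA2 (ENSG00000145386; GRCh37 chr4:122737599-122745038, minus strand) encodes cyclin A2. At 24 h it stood at 197, 179.8, 179.5 and 142 CPM in the controls, 125, 137, 119.5 and 75.4 for Sal, 69.2, 74.1, 76.9 and 78.2 for Das, and 61.0, 57.1, 60.6 and 61.8 with S + D. No treated range reached the controls. At 72 h it stood at 128, 115, 108 and 96.3 CPM in the controls, 12.96, 12.7, 11.9 and 20.2 for Sal, 39.5, 45.6, 126 and 50.7 for Das, and 10.1, 9.77, 10.5 and 16.4 with S + D. The Sal and S + D ranges overlapped each other far below the controls, and library 3 of Das lay among the controls.

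CCNA2 fell 7.83-fold with Sal at 72 h (-2.97 ± 0.32, adjusted p = 4.95e-07) and 9.66-fold with S + D (-3.27 ± 0.32, adjusted p = 1.78e-07), and the difference between these was not called (-0.30, 95% interval -0.94 to 0.33). With Das at 72 h the change was -0.78 ± 0.29 (adjusted p = 0.0497), and -1.29 ± 0.20 without library 3 (adjusted p = 8.8e-05). At 24 h Das gave the larger of the changes with 1 drug (-1.21 ± 0.15, adjusted p = 2.9e-05), and S + D gave -1.50 ± 0.15 (adjusted p = 1.02e-06). Sal gave -0.62 ± 0.15 at 24 h (adjusted p = 0.0109), which 5 of 8 alternatives called, the numbered libraries alone among them (adjusted p = 1.26e-06). It was also called without the unnumbered control, Sal library 2 or the unnumbered Sal library (adjusted p of 0.00612 to 0.00788).

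CCNA1 (ENSG00000133101; GRCh37 chr13:37005657-37017007, plus strand), the other A-type cyclin, went the opposite way from a very low level. At 72 h it stood at 0.23, 0.26, 0.14 and 0.46 CPM in the controls, 2.00, 1.39, 1.42 and 6.86 for Sal, 0.16, 0.29, 0 and 0.49 for Das, and 2.85, 2.10, 2.12 and 4.41 with S + D. Those are 5 to 17 reads per control library, 40 to 270 for Sal, 0 to 20 for Das and 71 to 157 with S + D. The gene passed the 72 h filter through the Sal and S + D libraries, so its calls there could only be upward. The Sal and S + D ranges lay above the controls and the Das range overlapped them, and the unnumbered library was the highest of each group. The log2 fold change was 3.38 ± 0.63 with Sal (adjusted p = 0.000158) and 3.35 ± 0.63 with S + D (adjusted p = 0.00017), and an exact two-sided permutation test of the CPM gave p = 0.0286 for each, the smallest that 4 against 4 can give. With Das it gave 0.22 ± 0.70 without library 3 (adjusted p = 0.826). At 24 h it stood between 0.09 and 1.17 CPM in all 16 libraries, and no treatment passed the test (adjusted p of 0.307 to 0.985).

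CDK2 (ENSG00000123374; GRCh37 chr12:56360565-56366573, plus strand) is the kinase that E-type cyclins and cyclin A2 activate. At 24 h it stood at 76.2, 75.3, 76.7 and 85.4 CPM in the controls, 63.4, 60.8, 63.2 and 63.7 for Sal, 60.3, 56.5, 55.0 and 65.8 for Das, and 36.4, 36.6, 35.9 and 42.8 with S + D. At 72 h it stood at 70.7, 69.98, 67.9 and 73.6 CPM in the controls, 22.0, 22.4, 19.9 and 30.8 for Sal, 34.7, 37.7, 61.0 and 48.0 for Das, and 19.7, 20.1, 19.1 and 25.99 with S + D. No treated range reached the controls at either time. CDK2 fell 2.02-fold with S + D at 24 h (adjusted p = 9.49e-08) and 3.36-fold at 72 h (adjusted p = 2.06e-07), while Sal gave -0.33 ± 0.08 at 24 h (adjusted p = 0.0115) and a 3.00-fold fall at 72 h (adjusted p = 6.41e-07). With Das it fell 1.3-fold at 24 h (adjusted p = 0.00257) and 1.56-fold at 72 h (adjusted p = 0.00774). The 72 h call with Das was lost without any of the 4 controls or the other 3 Das libraries (adjusted p of 0.0116 to 0.0355) and held without library 3 of Das (-0.80 ± 0.15, adjusted p = 0.000565). The 24 h call with Das was lost without the unnumbered control or Das library 2 or 3 (adjusted p of 0.0112 to 0.0118).

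CDC25A (ENSG00000164045; GRCh37 chr3:48198636-48229907, minus strand) had the E2F-type octamer in its window. It stood at 34.8, 34.5, 36.7 and 42.1 CPM in the 24 h controls, 26.8, 26.5, 25.7 and 24.7 for Sal, 19.3, 18.0, 20.8 and 21.6 for Das, and 11.8, 11.3, 11.4 and 12.8 with S + D. The 4 groups did not overlap. At 72 h it stood at 27.0, 26.7, 24.9 and 31.7 CPM in the controls, 4.97, 5.15, 4.71 and 9.94 for Sal, 8.52, 10.1, 22.4 and 12.2 for Das, and 3.23, 3.95, 3.31 and 5.98 with S + D. All treated libraries lay below the controls, those of S + D lowest but overlapping Sal. The fall with S + D was 3.06-fold at 24 h (adjusted p = 3.94e-09) and 6.75-fold at 72 h (adjusted p = 6.66e-07). Das gave -0.87 ± 0.09 at 24 h (adjusted p = 5.02e-06) and -1.06 ± 0.29 at 72 h (adjusted p = 0.0094), a call lost without any control or any other Das library (adjusted p of 0.0176 to 0.038). Without library 3 it was -1.41 ± 0.25 (adjusted p = 0.000328). Sal gave -0.52 ± 0.09 (adjusted p = 0.00113) and -2.16 ± 0.30 (adjusted p = 7.33e-06).

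SKP2 (ENSG00000145604; GRCh37 chr5:36152091-36196951, plus strand) gave the smallest of the 8 falls with S + D at 24 h. It stood at 69.7, 64.5, 65.0 and 61.5 CPM in the 24 h controls, 48.6, 53.4, 48.1 and 41.0 for Sal, 51.6, 53.3, 53.4 and 47.6 for Das, and 41.6, 39.9, 39.8 and 33.8 with S + D. All treated ranges lay below the controls, and S + D and Sal overlapped. At 72 h it stood at 63.9, 60.5, 58.9 and 65.5 CPM in the controls, 19.1, 19.0, 20.3 and 23.0 for Sal, 35.97, 39.8, 65.1 and 41.1 for Das, and 16.4, 18.5, 18.4 and 22.7 with S + D. Sal and S + D could not be separated (difference -0.10, 95% interval -0.44 to 0.24), and library 3 of Das lay within the control range. SKP2 fell 3.09-fold with Sal at 72 h (adjusted p = 2.65e-07) and 3.31-fold with S + D (adjusted p = 1.21e-07). With Das it gave -0.46 ± 0.16 (adjusted p = 0.0341), and -0.67 ± 0.12 without library 3 (adjusted p = 0.000282). At 24 h it was lower with Sal (-0.46 ± 0.10, adjusted p = 0.00474) and S + D (-0.71 ± 0.10, adjusted p = 1.92e-05), and Das gave -0.32 ± 0.10 (adjusted p = 0.0232). The 24 h Sal call was lost without control library 1, 2 or 3, Sal library 3 or the unnumbered Sal library (adjusted p of 0.0102 to 0.0202).

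**Figure D2:**
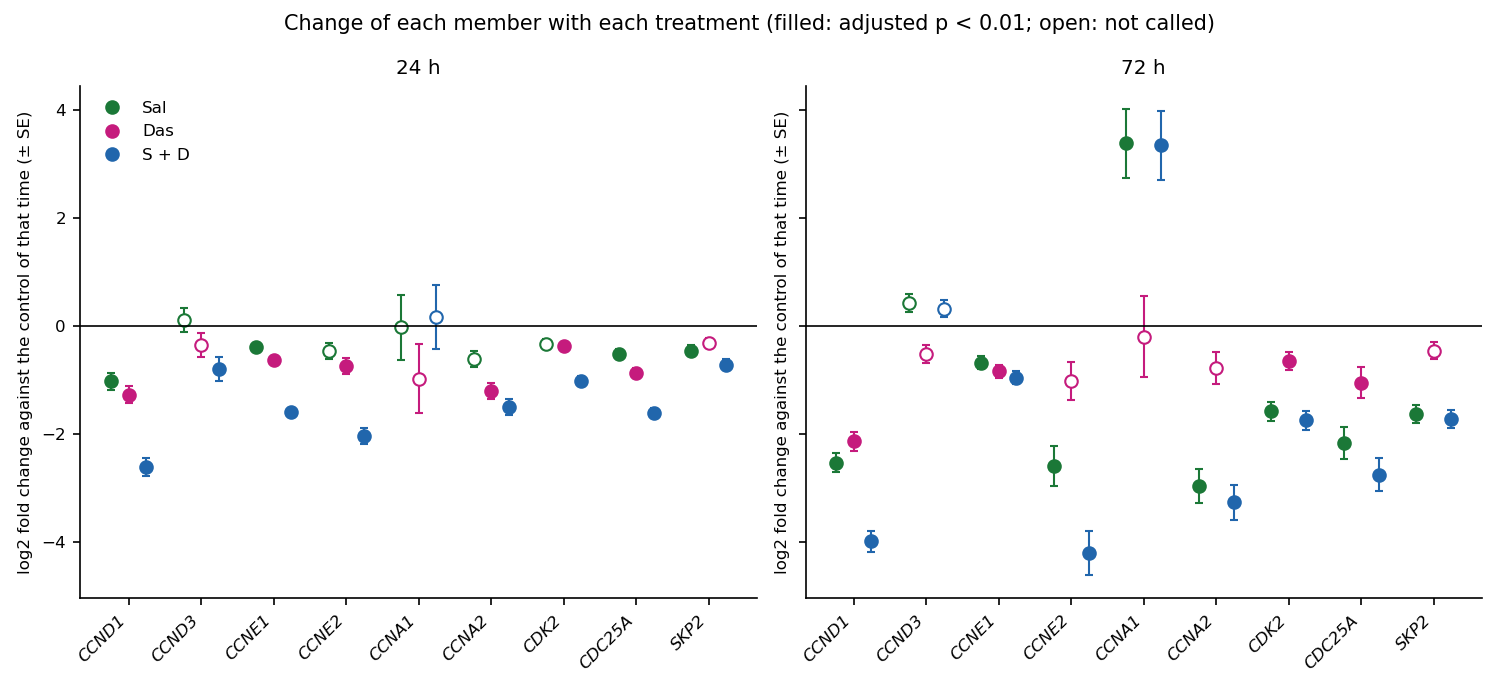
Log2 fold change (edgeR, ± SE, 4 libraries against 4) of the 9 tested members with Sal, Das and S + D against the control of the same time, at 24 h (left) and 72 h (right). Filled points passed an adjusted p of 0.01 and open points did not; S + D gave the lowest value of 8 members at 24 h, and at 72 h only CCNA1 lay clearly above 0.

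Fewer members were called between S + D and Sal at 72 h than at 24 h. Whether the differences themselves changed with time was not tested. At 24 h, 7 members were lower with S + D than with Sal (7.06% of genes) and 5 lower than with Das (4.46%), CCND1, CCNE1, CCNE2, CDK2 and CDC25A in both comparisons. The 24 h difference of CCND3 between S + D and Sal was lost in 4 of the 8 fits that left out a library, those without the unnumbered Sal library or S + D library 1, 2 or 3 (adjusted p of 0.0131 to 0.0313). At 72 h, 6 members were lower with S + D than with Das (17.7%) and 2 were higher, CCND3 and CCNA1 (14.3%). CCNA1 passed the 72 h filter through the Sal and S + D libraries, so its call against Das could only be upward. The same 8 were called without library 3 of Das. Only CCND1 passed the test as lower with S + D than with Sal at 72 h. Beyond CCND1, the 95% intervals of the 72 h difference between S + D and Sal reached from -2.42 to -0.81 for CCNE2 (adjusted p = 0.0144, and called in 6 alternatives), from -0.52 to 0.20 for CDK2, from -1.22 to 0.04 for CDC25A and from -0.46 to 0.24 for CCND3, so a missed call does not show that the groups were alike.

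The response to S + D was also set against the sum of the separate log2 responses to Sal and Das. At 24 h no member passed this test in the main edgeR fit (5 genes, 0.0306% of those tested, did). EdgeR called 2 with a term for the unnumbered libraries and 5 with the numbered libraries alone. DESeq2 called 2. Shares of all genes are not given for these alternatives, so nothing is read from their counts. An unadjusted p under 0.05 was reached by 1245 of 16357 genes and by 3 members. Those 3 were CCNE1 (-0.57 ± 0.10, adjusted p = 0.0313), CCNE2 (-0.84 ± 0.21, adjusted p = 0.131) and CDK2 (-0.30 ± 0.11, adjusted p = 0.465). At 72 h again no member passed in the main fit (7.52% of genes did), and DESeq2 called 1. Over all genes 5558 of 16682 had an unadjusted p under 0.05, so nothing is read from the count of 2 members that did. These were CCND1 (0.68 ± 0.24, adjusted p = 0.0569) and CCNE1 (0.56 ± 0.17, adjusted p = 0.0284), both less reduced with S + D than the sum. Without library 3 of Das both were called (CCND1 0.96 ± 0.14, adjusted p = 0.000141, and CCNE1 0.68 ± 0.14, adjusted p = 0.00277). That library lay nearest the controls for both genes, so leaving it out deepens the Das response and raises this difference. The share of all genes called in that fit is not given, and nothing is read from these 2 calls.

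Time alone gave no called change. Between the 24 h and 72 h controls no member was called by edgeR or DESeq2 (2.76% of genes were by edgeR). Over all genes 3632 of 17227 had an unadjusted p under 0.05. So did 2 members, CCNE1 (-0.28 ± 0.09) and CCNA2 (-0.64 ± 0.25), and nothing is read from that count. Sal gave another response at 72 h than at 24 h for 7 members (21.9% of genes), all but CCND3 and CCNE1. CCNA2 changed most among those that fell, by a further -2.34 ± 0.35 (adjusted p = 1.16e-05), and CCNE2 by -2.12 ± 0.41 (adjusted p = 0.000218). The response to S + D differed for 8 members (16.3% of genes), with CCND1, CCNE2, CCNA2, CDK2 and SKP2 lower at 72 h, and CCND3 (1.17 ± 0.29, adjusted p = 0.0036), CCNE1 and CCNA1 higher. The CCNA1 difference was lost in 8 of the 16 fits that left out a library for Sal (adjusted p up to 0.0208) and in 13 of 16 for S + D (up to 0.0318), and the CDK2 difference with S + D in 12 of 16 (up to 0.0207). The response to Das differed for none in either tool (0.226% of genes in edgeR). An unadjusted p under 0.05 was reached by 2451 of 17227 genes and by 1 member. That member was CCND1 (-0.84 ± 0.23, adjusted p = 0.0731). It was called without library 3 (-1.12 ± 0.19, adjusted p = 0.00121), the 72 h Das library nearest the controls, and nothing is read from that call.

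Levels were compared between genes per kilobase (kb) of annotated exon. In the 24 h controls the order was CCNA2 at 63.5 ± 8.37 CPM per kb (SD, n = 4), CCND1 at 54.2 ± 1.32, CDK2 at 20.2 ± 1.21, CCND3 at 15.9 ± 1.70, CCNE1 at 15.1 ± 0.582, CCNE2 at 11.5 ± 0.486, CDC25A at 8.93 ± 0.846, SKP2 at 3.75 ± 0.195 and CCNA1 at 0.218 ± 0.110. CCNA2 and CCND1 had overlapping ranges, as did CCND3 and CCNE1. With S + D at 72 h CCND3 led at 18.6 ± 2.74, ahead of CCNE1 at 6.48 ± 0.654, CDK2 at 5.46 ± 0.827, CCNA2 at 4.25 ± 1.16, CCND1 at 3.77 ± 0.484, CCNA1 at 1.27 ± 0.482, SKP2 at 1.09 ± 0.153, CDC25A at 0.994 ± 0.309 and CCNE2 at 0.526 ± 0.0990. Neighbours in that order had overlapping ranges from CCNE1 to CCND1 and from CCNA1 to CDC25A. SKP2 has 17377 annotated exon bases, and its value per kb rests on that length.

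Summed per class, the cyclins stood lower with S + D in all 3 classes. The D-type sum fell from 70.1 ± 2.84 CPM per kb in the 24 h controls to 17.6 ± 1.10 with S + D, the E-type sum from 26.6 ± 0.949 to 7.63 ± 0.609 and the A-type sum from 63.7 ± 8.31 to 22.1 ± 0.905. At 72 h, with S + D, the D-type sum stood at 22.4 ± 2.41 against 74.0 ± 3.24 in the controls, the E-type sum at 7.01 ± 0.669 against 22.1 ± 1.18 and the A-type sum at 5.53 ± 1.62 against 40.8 ± 4.86. As a share of all 3 sums, the A-type cyclins made up 29.8% ± 2.88 in the 72 h controls, 13.7% ± 2.51 for Sal, 38.1% ± 7.07 for Das and 15.6% ± 2.43 with S + D. The D-type share was 54.1% ± 2.70, 65.6% ± 1.34, 42.0% ± 6.98 and 64.2% ± 1.59, and the E-type share 16.1% ± 0.454, 20.6% ± 1.75, 19.8% ± 0.879 and 20.2% ± 1.60 in the same order. The Das group had the widest spread, with library 3 at 48.5% A-type. These shares are descriptions with no test.

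Within the D and E classes, the shares of CCND1 and CCNE2 stood lower at 72 h with Sal and S + D than in the controls. CCND1 made up 80.2% ± 2.41 of the D-type sum in the 72 h controls, 34.5% ± 3.55 for Sal, 55.9% ± 9.01 for Das and 17.1% ± 3.56 with S + D. CCNE2 made up 43.6% ± 2.97 of the E-type sum in the controls, 16.7% ± 5.95 for Sal, 37.4% ± 10.9 for Das and 7.53% ± 1.33 with S + D.

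**Figure D3:**
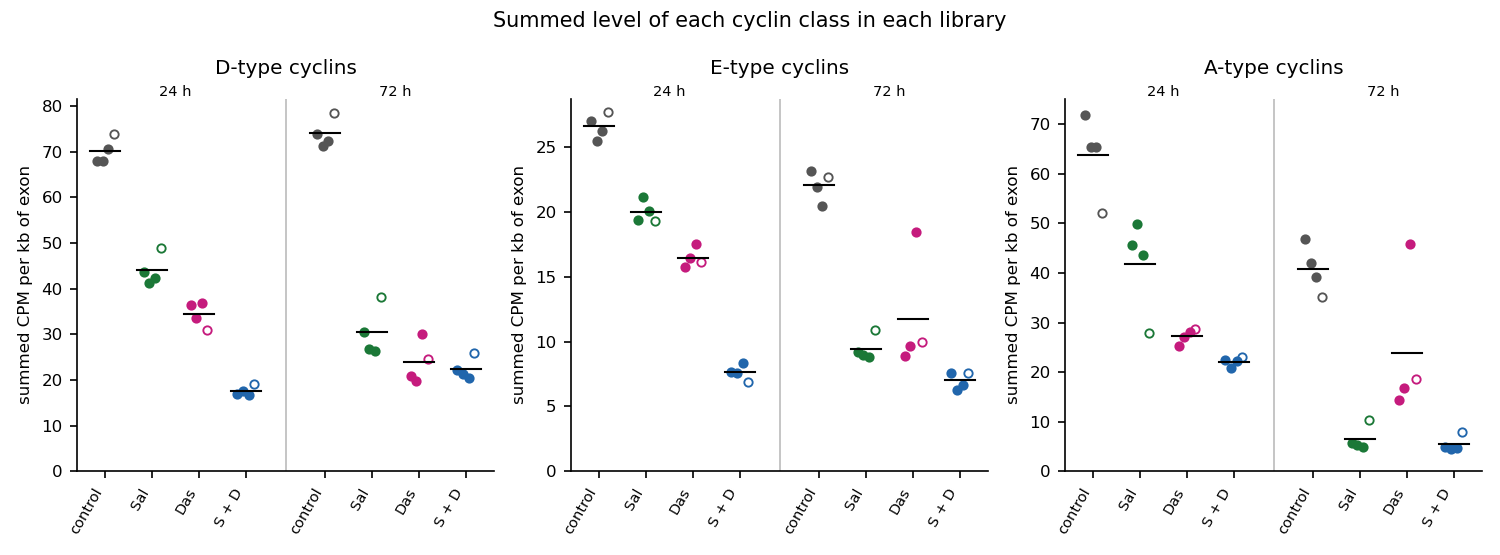
Summed CPM per kb of annotated exon of the D-type (CCND1, CCND2, CCND3), E-type (CCNE1, CCNE2) and A-type (CCNA1, CCNA2) cyclins in each library, on axes from 0. Points are libraries (open, unnumbered) and bars means of 4. At 72 h the A-type sum was 5.53 with S + D against 40.8 in the controls, and the D-type sum was 22.4 against 74.0.

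The ratio of one cyclin to another within a library was tested for 6 pairs in the 6 treatment groups, 36 tests in all, by exact two-sided permutation of 4 libraries against 4. The smallest p is 0.0286, which adjusts to 0.0429 over the 36. CCND1 fell against CCND3 in all 6 treatment groups with that p, by -1.08 (log2, treated minus control) with Sal, -0.94 for Das and -1.80 with S + D at 24 h, and by -2.94, -1.66 and -4.29 at 72 h. CCND1 also fell against CCNE1 in all 6 at that p, most with S + D at 72 h (-3.02). Against CCNE2 it fell at 24 h (-0.57, -0.56 and -0.59, each at the smallest p), but at 72 h only with Das (-0.97, the smallest p), with 0.07 for Sal (exact p = 0.771) and -0.01 for S + D (exact p = 0.914).

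Within the E-type pair, CCNE2 fell against CCNE1 with Sal at 72 h (-1.93) and with S + D at 24 h (-0.47) and 72 h (-3.01), each at the smallest p. The remaining 3 tests of that pair gave exact p of 0.257 to 0.629. CCNA2 rose against CCNE2 with S + D at 24 h (0.54) and 72 h (0.71) at the smallest p, and the other 4 tests gave exact p of 0.0571 to 0.314. CCND1 fell against CCNA2 with S + D at both times (-1.13 and -0.72) and with Das at 72 h (-1.25) at the smallest p, where Sal at 72 h gave 0.43 (exact p = 0.0571).

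**Figure D4:**
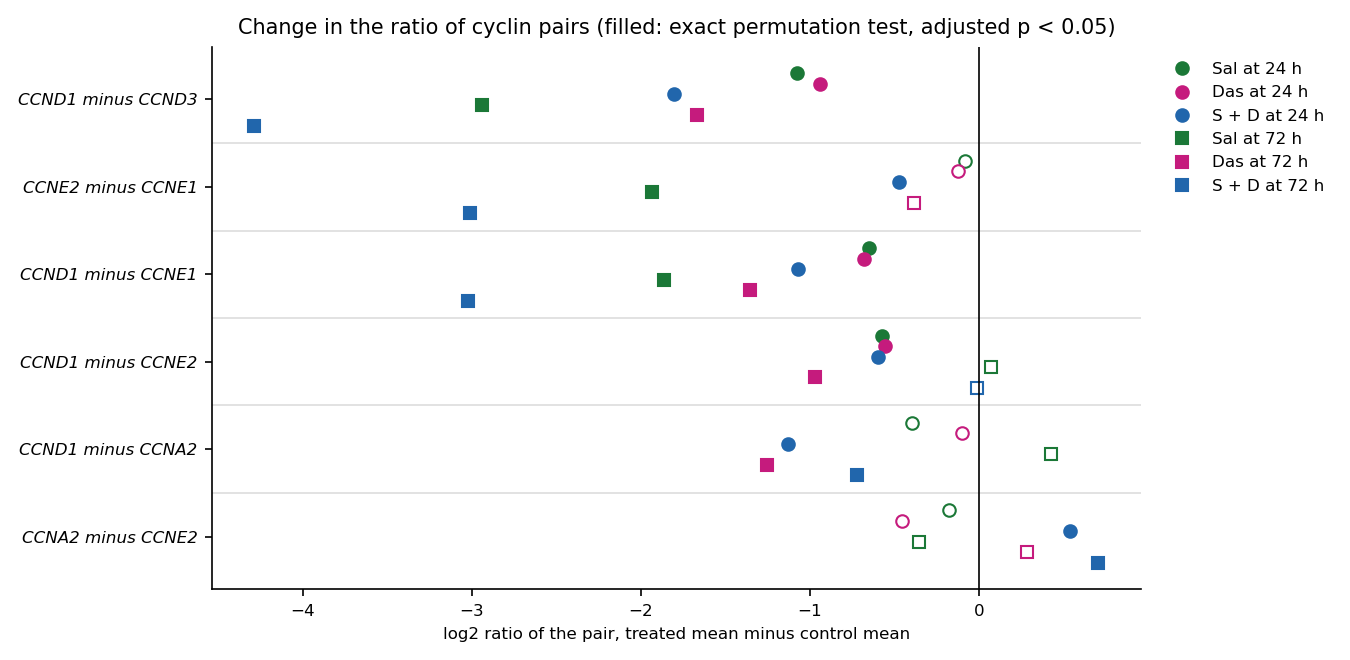
Change in the log2 ratio of 6 cyclin pairs, treated mean minus control mean of 4 libraries each, for Sal, Das and S + D at 24 h (circles) and 72 h (squares). Filled symbols had an adjusted p under 0.05 over 36 exact permutation tests; the CCND1 to CCND3 ratio was lower in all 6 groups, down to -4.29 with S + D at 72 h.

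The 32 libraries share treatments, and the unnumbered ones deviated together. Across them the levels of CDK2 and CDC25A were the most alike of any pair of members (Pearson r = 0.99), and CCNA2 correlated with SKP2 at 0.97 and with CCNE2 at 0.95. CCND3 had r of -0.02 with CCND1 and -0.36 with SKP2. Among 13718 genes of at least 1 CPM on average, the closest to CCND1 were MYEOV, SH3TC2 and GRAMD2A (r of 0.98 to 0.99), and to CCND3 CSRNP1, SLC25A11 and AP2A1 (0.95 to 0.96). Those closest to CCNE1 were GRHL3, PIGU and PKM (0.92 to 0.94), and to CCNE2 RFC3, FAM111B and DTL (0.98 to 0.99). CCNA2 lay closest to KIF20A, DLGAP5 and NUSAP1 (0.99 to 1.00 when rounded, with 0.9957 the highest), and CCNA1 to UROD, IPO13 and ESYT1 (0.94 each). CDK2 lay closest to PNP, MCM7 and CNIH2 (0.99 each), CDC25A to C1orf112, E2F7 and ZWINT (0.99 each), and SKP2 to RBBP4, WDHD1 and ARHGEF26 (0.99 each). MCM7 is part of the replicative helicase and RFC3 of the clamp loader of DNA replication, and KIF20A is a mitotic kinesin. These correlations are descriptions and carry no test.

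The partners of the members were read from lists of related genes, with library 3 of Das included. The counts of the kinases and partners, the pocket proteins and inhibitors and the other cyclins lie near the shares of all genes that were lower or higher (26.8% and 26.3% with Sal, 27.9% and 27% with S + D), and nothing is read from them. With Das at 72 h, 9.36% of genes were lower and 1752 of 16682 higher. Of the 9 G1 kinases and partners, 2 were lower and 3 higher with Sal at 72 h, 1 was higher with Das, and 2 were lower and 2 higher with S + D. With S + D, CDK1, the mitotic kinase, fell (-3.03 ± 0.40), as did the adaptor CKS1B (-1.05 ± 0.29), while CDK7 (1.79 ± 0.19) and its cyclin CCNH (0.87 ± 0.14) of the CDK-activating kinase rose. All 6 genes of the phosphate switch were lower with Sal and with S + D, and 1 with Das. With S + D the phosphatases CDC25C (-3.73 ± 0.34) and CDC25B (-3.42 ± 0.33) fell, and so did the opposing inhibitory kinases PKMYT1 (-3.47 ± 0.49) and WEE1 (-1.73 ± 0.16). The kinases and the phosphatases of this switch, which act against each other, moved the same way.

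Of the 12 cyclin turnover genes, 6 were lower and 1 higher with Sal, 2 lower and 1 higher with Das, and 6 lower and 2 higher with S + D at 72 h. Over all genes, 26.8% were lower and 26.3% higher with Sal, and 27.9% and 27% with S + D. CDC20 (-3.35 ± 0.43), which activates the anaphase-promoting complex, the F-box gene CCNF (-3.19 ± 0.30) and FBXO5 (-1.70 ± 0.20), an inhibitor of that complex, fell with S + D, and FBXO4 (1.36 ± 0.17) rose. Of the 10 pocket proteins and CDK inhibitors, 3 were lower and 3 higher with Sal and with S + D, and 1 was lower with Das. With S + D, RBL1 (p107, -1.61 ± 0.21), CDKN2A (-1.37 ± 0.15) and CDKN2C (-1.15 ± 0.20) fell, and CDKN1A (p21, 1.34 ± 0.23) rose. RB1, chosen here after its values were seen because the D-type cyclins act on its product, had a group mean between 0.753 and 1.28 CPM in all 8 groups. Of the 12 other cyclins, 4 were lower and 4 higher with Sal, 2 higher with Das, and 4 lower and 5 higher with S + D. The mitotic cyclins CCNB2 (-3.11 ± 0.34) and CCNB1 (-2.98 ± 0.34) and CCNG2 (-0.82 ± 0.16) fell with S + D, and CCNL2 (1.02 ± 0.20) rose. The median log2 fold changes with S + D at 72 h were -0.20 for the kinases and partners, -2.57 for the phosphate switch, -0.31 for turnover, 0.30 for pocket proteins and inhibitors and 0.10 for the other cyclins, against 0.012 for all genes tested.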

How the data were processed

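RNA of MDA-MB-468 cells was sequenced as single-end TruSeq libraries. The authors demultiplexed with bcl2fastq 2.19 and aligned to GRCh37 with STAR 2.5.2, and the deposited values are whole-number counts per Ensembl gene, not normalized. The submitters' processing notes also name Cufflinks 2.1.1 and DESeq2. The counting program, its annotation and its use of strand are not given in the sources used here. From these counts, edgeR 4.0.16 (R 4.3.3) with TMM scaling, filterByExpr and the quasi-likelihood test was fitted to the 16 libraries of each time (16357 genes at 24 h, 16682 at 72 h), and to all 32 (17227) for changes over time. The p-values were Benjamini-Hochberg adjusted over all genes tested, and adjusted p under 0.01 made a call. CPM values used TMM over all 32 libraries. Cyclin ratios used log2(CPM + 0.5) and exact two-sided permutation tests. Intervals of differences are 95% intervals from the fit's standard error and cover the spread between libraries only.

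Groups came from the sample labels. The members, the lists of partner genes and the tests were chosen with earlier results of these data known. All members are named; of each other list, up to 4 genes with the largest change with S + D at 72 h among those of at least 1 CPM are named, together with counts for the 3 treatments. Symbols and positions came from GENCODE lifted to GRCh37, which matched 46537 of 48804 identifiers. PECAM1 of the markers of other cell types was not matched and not used. Promoter windows are RefSeq sequence on GRCh38.p14, used for letters alone.

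The replicate numbers do not pair the libraries: the deviations of same-numbered libraries correlated from -0.32 to 0.39 (24 h) and from -0.55 to 0.25 (72 h). No 2 libraries were identical. The test was run on simulated counts of 16682 genes for Sal against control at 72 h. It called 48 of 50 genes raised 4-fold (log2 of 2), 44 of 50 lowered as much, 26 of 50 raised 2-fold and 23 of 50 lowered 2-fold, with 0 false calls. The simulated libraries were independent, with few genes changed and no shared shift of the unnumbered ones. In the real data 8867 genes were called for Sal at 72 h, so the 0 false calls give no error rate for them. Alternatives were DESeq2 1.42.0, its size factors, no filter, a replicate block, a term for the unnumbered libraries, numbered libraries alone, other sets of fitted libraries, the fold cutoff and leaving out each library.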

Additional observations from a re-analysis of the deposited data

Results flagged for a closer look

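In 15 of 72 sets of 4 libraries (9 members in 8 groups), the highest or lowest library stood far from the other 3 by Dixon's test, where chance gives about 1 in 20. The unnumbered library was that library in 10. With S + D at 24 h it stood at 31.0 CPM for CCND1 (others 43.6 to 46.1), 72.7 for CCND3 (43.6 to 45.8) and 42.8 for CDK2 (35.9 to 36.6). With Sal it stood at 162 for CCND3 at 24 h (70.9 to 83.6), and at 72 h at 6.86 for CCNA1 (1.39 to 2.00), 20.2 for CCNA2 (11.9 to 12.96) and 9.94 for CDC25A (4.71 to 5.15). With S + D at 72 h it stood at 16.4 for CCNA2 (9.77 to 10.5) and 25.99 for CDK2 (19.1 to 20.1), and in the 24 h controls at 85.4 for CDK2 (75.3 to 76.7).

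Library 3 of Das at 72 h was the highest for 4 members: 98.5 CPM for CCND1 (others 49.7 to 57.3), 21.2 for CCNE1 (15.5 to 16.4), 43.2 for CCNE2 (11.2 to 14.7) and 126 for CCNA2 (39.5 to 50.7). CDK2 with Sal at 24 h was lowest in library 2, at 60.8 CPM against 63.2 to 63.7. The part of batch or handling in any of these was not tested.

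The response to Sal was larger at 72 h than at 24 h for 7 members by a test of the difference in edgeR, in log2 values of -1.50 for CCND1 (adjusted p = 1.72e-05), -2.12 for CCNE2, -2.34 for CCNA2, -1.25 for CDK2, -1.63 for CDC25A, -1.16 for SKP2 and 3.41 for CCNA1 (adjusted p = 0.00496).

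The response to S + D differed for 8 members, by -1.32 for CCND1 (adjusted p = 0.000136), 1.17 for CCND3, 0.68 for CCNE1, -2.12 for CCNE2, 3.22 for CCNA1 (adjusted p = 0.00919), -1.72 for CCNA2, -0.68 for CDK2 and -0.96 for SKP2. CCND3 moved from -0.79 at 24 h to 0.32 at 72 h, the latter not called.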

How the results depend on the processing

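No value of a member reversed its direction under any alternative where it was called. For Sal at 24 h (4), the count of members called was 0 with the fold cutoff added, 2 with no filter or with all 32 libraries fitted, 1 with only the compared groups, 7 with the replicate block, with a term for the unnumbered libraries or with numbered libraries alone, and 2 to 5 when 1 library was left out (2 without control library 3). Das at 72 h (4) gave 1 with the fold cutoff, 2 with only the compared groups, and 2 to 7 with 1 library left out (7 without Das library 3, 2 without any other). With the fold cutoff the other counts were 0 for Das at 24 h, 5 for S + D at 24 h, 2 and 0 for S + D against Sal and against Das at 24 h, 0 and 5 for the same at 72 h, and 3 for the time difference with S + D. S + D against Sal at 72 h (1) gave 2 with no filter, the block, the term, DESeq2, all 32 libraries or only the compared groups. S + D against Das at 24 h (5) gave 8 with numbered libraries. Against the sum, 24 h (0) gave 2 with the block, the term and DESeq2 and 5 with numbered libraries, and 72 h (0) gave 1 with DESeq2 or all 32 libraries and 0 to 2 with 1 library left out. The control difference (0) gave 1 with only the compared groups, and the time difference with Das (0) gave 1 with numbered libraries and 0 to 1 with 1 left out. The replicate numbers do not pair the samples, so the block is given here only. Of the cyclin ratios, a pseudocount of 2 CPM moved 2: CCND1 to CCNE2 with S + D at 72 h reached the threshold (-0.48) and CCNA2 to CCNE2 lost it (0.29). The causes were not tested. Depth limits CCND2 and CCNA1, and the 4 libraries per group limit the rest.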
